A study of Mus musculus with 3 samples.

Results

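Tuft cells of the mouse colon were picked out of 3 single-cell RNA libraries by the genes they carry. A barcode was taken as a member when it held at least 3 UMIs, the unique molecular identifiers that count captured RNA molecules, summed over Dclk1, Trpm5, Pou2f3, Avil, Rgs13, Sh2d6 and Gfi1b. It also needed at least 1 UMI of the epithelial genes Epcam, Krt8 and Krt18, under 2% of its UMIs from goblet genes and under 2% from colonocyte genes, and under 3 UMIs of the macrophage genes C1qa, C1qb and Csf1r. This rule found 305 members among 16406 barcodes that passed the quality limits of at least 300 genes and at most 25% mitochondrial UMIs. Of these, 73 also held at least 3 UMIs of a B cell, T cell, fibroblast or endothelial filter, and the 232 without them are called tuft cells below.

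The study asked how the cell types of the germ-free mouse colon differ after colonization with BT strains. There was 1 library per group: colon of mice carrying a BT mutant, colon of mice carrying BT WT, and colon of mice given PBS, and mice of all 3 groups began germ-free. The labels do not spell out BT, and the sources used here do not give the mutation, the time after colonization, the age, sex and strain of the mice or the number of mice pooled. With 1 library per group no difference between groups could be tested, and intervals between libraries cover counting error only.

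Tuft cells are rare chemosensory cells of the gut lining. They carry a taste-like signalling cascade that ends at the cation channel Trpm5, depend on the transcription factor Pou2f3, and release interleukin 25, leukotrienes, prostaglandins and acetylcholine towards immune cells and nerves. In the small intestine this output drives the type 2 response to worms and protists, while the role of colonic tuft cells is less settled.

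Pou2f3 belongs to the POU family, whose members are known to bind the octamer ATGCAAAT. Promoter windows from RefSeq on the GRCm38.p6 build, running from 250 bases before to 50 bases after the start site, were searched for the octamer and its reverse complement ATTTGCAT. Windows were found for 30 of the 37 tuft genes looked up, which were the 7 rule genes and 30 further tuft markers. The octamer lay in the window of 2 of the 30, or 6.67%, against 532 of 27025 genes, or 1.97%, in the whole table. The 2 stretches are shown because they hold the octamer, given in capitals, on the strand of the gene and read 5′ to 3′. The first base of the octamer stood at position -174 from the RefSeq start of Hpgds, which encodes the haematopoietic prostaglandin D synthase, and at position -160 from that of Kctd12, which encodes an auxiliary subunit of GABA-B receptors.
Hpgds, minus strand, chr6:65144886-65144915: ctttactctttATGCAAATacgttggacta
Kctd12, minus strand, chr14:102982779-102982808: cagcgtttagcATGCAAATgcattccccgc
The stretch of Hpgds overlaps the longer span that GENCODE gives the gene. Both genes were higher in tuft cells than in other epithelial cells, with log2 fold changes of 3.95 for Hpgds and 1.71 for Kctd12 in the test described below, but a letter match is a description and not a binding site.

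The 232 tuft cells comprised 112 from the BT mutant library, 79 from the BT WT library and 41 from the PBS library. They held a median of 5826, 5843 and 9087 UMIs in the BT mutant, BT WT and PBS libraries, and a median of 2053, 2062 and 2914 genes. Their median mitochondrial share was 13.5%, 12.7% and 9.74% of UMIs. At most 10% mitochondrial UMIs were held by 26 of 112, 18 of 79 and 21 of 41 of them, so the libraries differed in this too. Other epithelial cells, defined as barcodes with at least 3 UMIs of Epcam, Krt8 and Krt18 and under 3 UMIs of the rule genes, numbered 3578, 4269 and 1121 in the same order, with medians of 3560.0, 4218 and 5348 UMIs. Tuft cells thus had more UMIs per barcode than other epithelial cells in each library. A barcode with few UMIs is less likely to hold 3 of the rule genes, so this difference may follow in part from the choice. The libraries shared 8 to 19 barcodes per pair, and no tuft cell was among them.

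The 7 rule genes chose the cells, so their levels are a description. Dclk1, a microtubule-associated kinase and the classical tuft marker at chr3:55242364-55539068 (mm10), had 988, 877 and 605 CPM (the gene's share of all UMIs summed over the cells) in tuft cells of the BT mutant, BT WT and PBS libraries, against 0.604, 0.686 and 0.648 CPM in other epithelial cells. Sh2d6, an SH2-domain adaptor at chr6:72513641-72521707, had 1143, 553 and 449 CPM in tuft cells, against 1.63, 1.12 and 1.84 CPM in other epithelial cells. Trpm5, the channel at chr7:143069153-143094642, had 538, 368 and 265 CPM in tuft cells, against 0.573, 0.437 and 0.486 CPM in other epithelial cells. These 3 genes gave most rule UMIs. Rgs13, a regulator of G-protein signalling, had 394, 311 and 299.5 CPM in tuft cells, and Avil, an actin-binding protein of the brush, had 353, 235 and 238 CPM. The transcription factors were scarcer, with Pou2f3 (chr9:43123939-43210369) at 49.2, 46.0 and 37.4 CPM in tuft cells and Gfi1b at 18.2 to 28.8 CPM. A member usually carried several of them: 85 of 112, 64 of 79 and 33 of 41 tuft cells in the BT mutant, BT WT and PBS libraries held at least 5 of the 7 genes.

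The 73 barcodes left aside show where the rule reaches other cells. Fibroblast markers were found in 57 of them, and in the 22 of the BT mutant library 101 of 102 rule UMIs were Dclk1, as were 109 of 140 in the 22 of the BT WT library and 81 of 106 in the 13 of the PBS library. Dclk1 is also known in stromal cells. B cell markers were found in 16 barcodes, T cell markers in 5 and endothelial markers in 1, and mast cell markers in none. Rgs13 is also known in germinal centre B cells, but only 4 of the 16 B cell barcodes held Rgs13 as their sole rule gene.

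Barcodes with 2 rule UMIs that met the other limits, just outside the rule, numbered 8, 6 and 5 in the BT mutant, BT WT and PBS libraries. They held a median of 4.05, 9.57 and 15.6 UMIs per 10000 of 29 further tuft markers that the rule does not use. Barcodes with exactly 3 rule UMIs, just inside it, numbered 5, 3 and 5 and held 120.3, 11.0 and 9.55 per 10000. Those with 4 to 9 numbered 11, 4 and 2 and held 92.5, 89.1 and 24.8 per 10000. Those with 10 or more numbered 96, 72 and 34 and held 216, 226 and 215 per 10000. From 2 to 3 rule UMIs the value was higher in the BT mutant library, close in the BT WT library and lower in the PBS library, and most members were far from the limit.

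The members were split by depth at 20000 UMIs. Up to 20000 UMIs there were 207 tuft cells, namely 103, 69 and 35 in the BT mutant, BT WT and PBS libraries, in which the 29 further markers made up a median of 2.17%, 2.29% and 2.09% of the UMIs of a cell. Above 20000 UMIs there were 25 tuft cells, namely 9, 10 and 6, in which the same markers made up 0.423%, 0.149% and 0.102%. These 25 barcodes held 42.6%, 64.5% and 71.7% of all tuft UMIs. They also held 2671 UMIs of the enteroendocrine genes that make gut hormones and 536 UMIs of cell cycle genes, against 46 and 21 UMIs in the other 207 cells. These were not spread over all 25: only 4 held at least 3 enteroendocrine UMIs and 9 at least 3 cell cycle UMIs. By library the deep barcodes held 0, 380 and 2291 enteroendocrine UMIs and 7, 288 and 241 cell cycle UMIs (BT mutant, BT WT, PBS). In 1 of the 25 deep barcodes the further markers reached 1% of the UMIs, as they did in 179 of the 207 other cells. The limit of 20000 UMIs was set after these values were seen, so the main counts and the leading ratios are given below with the 25 barcodes and without them.

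**Figure D1:**
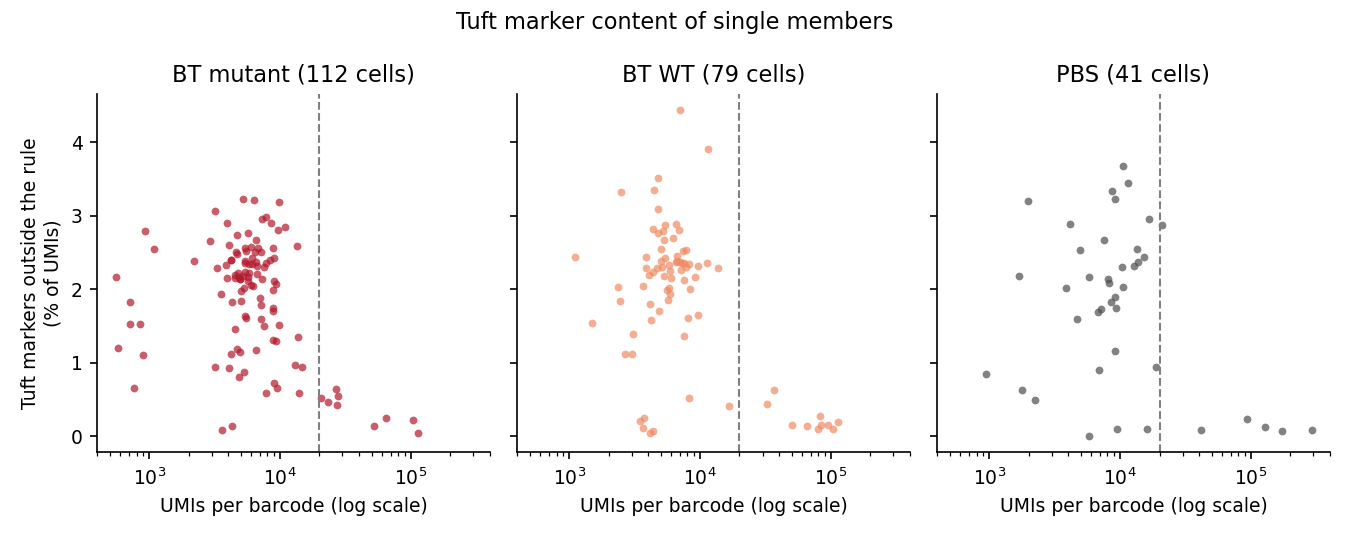
Each point is a tuft cell, with its UMIs on a log axis and the share of its UMIs from 29 tuft markers that the rule does not use; the dashed line marks 20000 UMIs. Cells left of the line had medians of 2.17%, 2.29% and 2.09% in the BT mutant, BT WT and PBS libraries, and those right of it 0.423%, 0.149% and 0.102%.

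In cells of up to 20000 UMIs the rule genes were level between libraries. Since these genes chose the cells, their levels are a description and cannot show whether the libraries are alike. Dclk1 had 1572, 2115 and 1735 CPM in the BT mutant, BT WT and PBS libraries, Trpm5 had 866, 922 and 794 CPM, and Sh2d6 had 1825, 1342 and 1375 CPM. None of the 7 differed by 2-fold in any pair of libraries, and the log2 ratios lay between -0.63 and 0.44. With the 25 deep barcodes included, the same 7 genes were all higher in the BT mutant than in the BT WT library, by 0.08 to 1.03 on the log2 scale of CPM + 10. 

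Tuft cells made up 2.87% of epithelial barcodes in the BT mutant library (95% Clopper-Pearson interval 2.37% to 3.44%, 112 of 3904), 1.72% in the BT WT library (1.37% to 2.14%, 79 of 4586) and 2.71% in the PBS library (1.95% to 3.66%, 41 of 1512). The share was lowest in the BT WT library under each of 10 ways of counting, from 1.40% after thinning every barcode to 1500 UMIs to 2.26% with the 73 other barcodes kept. These ways count largely the same barcodes again, and intervals overlapped in some. Of all kept barcodes it was 1.12% (0.89% to 1.39%), against 1.28% (0.92% to 1.74%) in the PBS library. At a mitochondrial limit of 10% it was 2.17% (1.29% to 3.41%), against 2.97% (1.95% to 4.32%) in the BT mutant and 2.68% (1.67% to 4.07%) in the PBS library. The BT mutant and PBS libraries did not keep an order: the BT mutant library had 2.49% and the PBS library 3.36% after thinning. Without barcodes above 20000 UMIs the shares were 3.04%, 1.60% and 2.91% in the BT mutant, BT WT and PBS libraries. A share falls when other epithelial barcodes are added as well as when tuft cells are lost, and 1 library per group gives no error between mice.

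**Figure D2:**
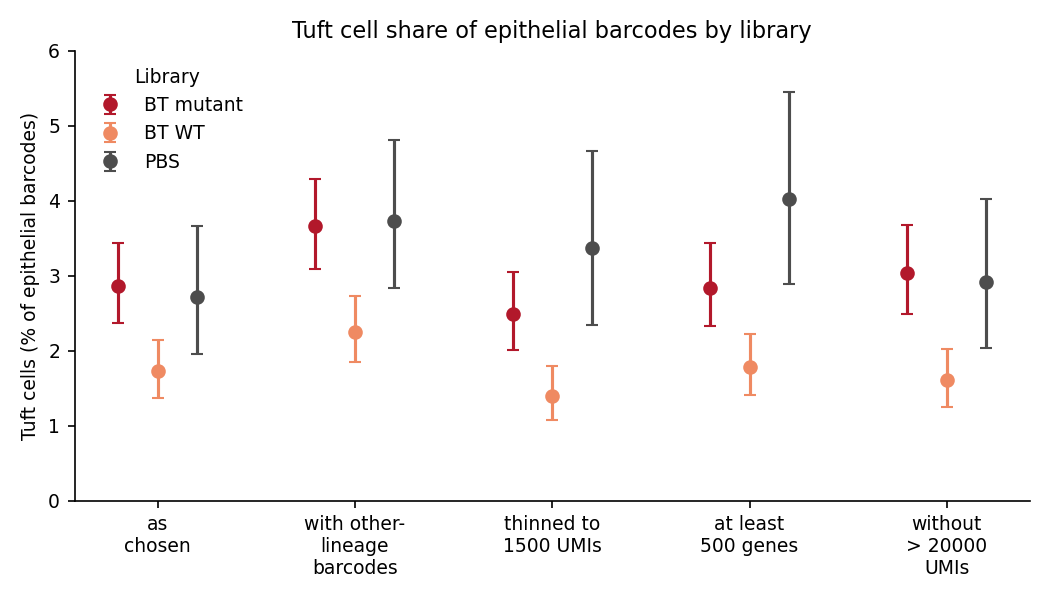
Tuft cells as a percentage of epithelial barcodes in each library under 5 ways of counting; points are shares and bars are 95% Clopper-Pearson intervals, which cover counting error only. The BT WT library is lowest in each, from 1.40% to 2.26%, while the BT mutant and PBS libraries change places.

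Against other epithelial cells of the same 3 libraries, tuft cells had 1261 genes higher and 1893 lower at an adjusted p under 0.05 among 12085 tested (edgeR's quasi-likelihood test on sums per library, with library as a block and Benjamini-Hochberg adjustment). That is 10.4% of the genes tested higher and 15.7% lower, and genes the rule names for or against were left out of these counts. Leaving out the BT WT library gave 853 higher and 1185 lower. Without the 25 deep barcodes 1952 of 12053 genes were higher (16.2%) and 2603 lower (21.6%). Of the 1261 and 1893 genes, 1005 and 1450 kept their call while 30 were called in the opposite direction. Only tuft barcodes were dropped there, and the sums of other epithelial cells kept their barcodes above 20000 UMIs. Since tuft cells were chosen by expression and tuft markers go together, a higher tuft marker here is partly what the choice fixes.

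All 29 further tuft markers tested were higher in tuft cells, with a median log2 fold change of 8.04, against -0.05 over all genes, and 9.26 without the deep barcodes. They were named as markers with results of these data known. The most abundant was Cd24a, a surface glycoprotein, at 4489, 6569 and 6616 CPM in tuft cells of up to 20000 UMIs from the BT mutant, BT WT and PBS libraries, against 61.1, 78.1 and 87.2 CPM in other epithelial cells. Matk, a kinase that restrains Src-family kinases, had 2258, 1804 and 1317 CPM in these tuft cells, against 2.48, 1.03 and 0.865 CPM in other epithelial cells. Their level follows in part from the choice of cells by other tuft genes, and is a description of the cells chosen. Because free RNA gives stray UMIs, the share of cells with a UMI was compared at 1500 UMIs a cell: Matk was found in 85.1%, 83.6% and 64.7% of tuft cells of up to 20000 UMIs in the BT mutant, BT WT and PBS libraries, and in 0.489%, 0.124% and 0.395% of other epithelial cells.

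By the size of the fold change, the leading genes outside the rule were Rgs22, Itprid1, Hmx3, A630010A05Rik, Pcdh20, Gnat3, Chat, Bmx, Sh2d7 and Nebl. Rgs22, of the family that ends G-protein signals, had 101 UMIs in tuft cells and 0 in other epithelial cells, which is at least 861-fold higher when a count of 0 is read as 3 UMIs over the group. A630010A05Rik, with 75 UMIs, and Pcdh20, a protocadherin with 44 UMIs, were at least 640-fold and 375-fold higher on the same floor. Itprid1 had 229 UMIs and Hmx3 222, against 1 UMI each in other epithelial cells. Gnat3, Chat, Bmx, Sh2d7 and Nebl were 1586, 1207, 1119, 1057 and 1016 times as high in tuft cells by pooled CPM. Each of the 10 was higher in 3 of 3 libraries, with adjusted p between 2.1e-11 and 1.1e-06 in edgeR's test. Sh2d7, an adaptor related to Sh2d6, was found in 44.7%, 50.7% and 55.9% of tuft cells at 1500 UMIs in the BT mutant, BT WT and PBS libraries.

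The largest falls were in genes at 0 UMIs in all tuft cells. Ido1, which breaks down tryptophan, was at least 13.8-fold lower in tuft cells, Ptk6, a kinase of differentiated gut epithelium, at least 10.1-fold, Vill, a villin-like protein, at least 7.24-fold, H2-Q1 at least 6.50-fold and Frmd3 at least 5.90-fold, with the floor of 3 UMIs over the group. H2-Q1 is a class I gene with close copies, so its count may be split among them. The 5 folds pool the 3 libraries, and levels in other epithelial cells were uneven. They ranged from 2.78 to 28.2 CPM for Ido1, 1.15 to 13.7 for Vill, 1.36 to 11.1 for Frmd3 and 3.11 to 9.2 for H2-Q1. The lowest value of each was in the BT mutant library, where a count of 0 in tuft cells says little. For Ido1 the log2 ratios of CPM + 10 were -0.35, -1.93 and -0.41 in the BT mutant, BT WT and PBS libraries. Ptk6 was the most even of the 5. In edgeR's quasi-likelihood test the adjusted p lay between 1.1e-04 and 7.4e-04 for these 5. Without the library block the adjusted p of Ido1, Vill and Frmd3 was 0.0745, 0.0820 and 0.0540, and that of Vill was 0.0584 without the BT WT library.

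The taste-type cascade was present in part, and its known taste receptors were hardly seen. Of 11 members tested, 7 were higher and 2 lower in tuft cells, while Gnb1 and Ffar2 did not pass. Over all genes tested 10.4% were higher and 15.7% lower. The G protein beta subunit Gnb3 had no UMI in tuft cells of any library. Gnat3, the alpha subunit gustducin, had 294, 337 and 448 CPM in tuft cells of up to 20000 UMIs from the BT mutant, BT WT and PBS libraries, against 0.121, 0.125 and 0 CPM in other epithelial cells (log2 ratio of CPM + 10 over all tuft cells 3.99 ± 0.23, SD, n = 3 libraries). Plcb2, the phospholipase of the cascade, had 171, 213 and 177 CPM, against 0.151, 0.125 and 0.270 CPM. Itpr2, a calcium-release channel, had 438, 616 and 519 CPM, against 24.8, 26.1 and 32.4 CPM. Over all tuft cells Itpr3 had 40.8, 37.3 and 41.3 CPM, against 59.5, 66.0 and 34.9 CPM in other epithelial cells, and passed as lower (edgeR adjusted p = 0.049), although it was lower in the BT mutant and BT WT libraries and not in the PBS library. Trpm4, the near relative of Trpm5, was lower in 3 of 3 libraries, at 35.6, 29.3 and 33.9 CPM in tuft cells of up to 20000 UMIs, against 149, 148 and 81.1 CPM.

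Among receptors, Ffar3, which senses short-chain fatty acids, had 107, 144 and 74.7 CPM in tuft cells of the BT mutant, BT WT and PBS libraries, against 0.121, 0.0312 and 0 CPM in other epithelial cells. Its relative Ffar2 had 0, 2.44 and 3.39 CPM in the same tuft cells, against 4.29, 5.30 and 5.78 CPM. Sucnr1, the succinate receptor of small intestinal tuft cells, had 6.46, 0 and 0 CPM, and Tas1r3 had 1.62, 0 and 0 CPM. Tas2r108 and Vmn2r26 had no UMI in tuft cells. At these depths a receptor of low copy number may go uncounted.

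Of 13 genes of lipid mediator synthesis tested, 6 were higher in tuft cells (Pla2g4a, Alox5, Alox5ap, Ltc4s, Ptgs1 and Hpgds), none was lower and 7 did not pass, with a median log2 fold change of 0.13. The shares over all genes were 10.4% higher and 15.7% lower. Ltc4s, which makes leukotriene C4, had 921, 824 and 934 CPM in tuft cells of up to 20000 UMIs from the BT mutant, BT WT and PBS libraries, against 1.09, 1.19 and 1.57 CPM in other epithelial cells (5.19 ± 0.49, log2 ratio of CPM + 10 over all tuft cells, SD, n = 3). Alox5ap, which hands arachidonic acid to 5-lipoxygenase, had 693, 709 and 699 CPM, against 5.04, 2.25 and 2.70 CPM. Alox5 itself had 574, 486 and 367 CPM, against 0.423, 0.250 and 0.108 CPM. On the prostaglandin side Ptgs1, cyclooxygenase 1, had 244, 308 and 275 CPM, against 0.211, 0.250 and 0.378 CPM, and Hpgds had 284, 359 and 306 CPM, against 7.36, 10.5 and 5.19 CPM. Ptgs2, the inducible cyclooxygenase, had no UMI in these tuft cells. The call of Pla2g4a, a phospholipase that frees arachidonic acid, rested on the deep barcodes (edgeR adjusted p = 0.037 with them and 0.96 without), and without them 6 were higher, Mgst3 in its place, while Lta4h, Ptges2, Mgst2 and Abcc4 were lower.

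Of the type 2 cytokine list, 4 of 13 genes tested were higher in tuft cells, where 10.4% of all genes were. Lower were 2, a share near the 15.7% of all genes. Il25, the cytokine that tuft cells are known for, was found in 34 of 103, 23 of 69 and 9 of 35 tuft cells of up to 20000 UMIs in the BT mutant, BT WT and PBS libraries, with 61, 33 and 17 UMIs, and in other epithelial cells it had 3 UMIs in all. Its receptor subunit Il17rb had 144 and 166 CPM in these tuft cells of the BT mutant and BT WT libraries, against 0.573 and 0.437 CPM in other epithelial cells. The receptor chains Il13ra1 and Il4ra, which respond to interleukins 13 and 4, were 3.92 and 3.62 times as high in tuft cells by pooled CPM. Il17rc and Tnfaip3, a brake on NF-kB, were lower, and without the deep barcodes Stat3, Socs3 and Cish were too, making 5 of 14. The other alarmins were not seen: Tslp and Il33 had no UMI in tuft cells of up to 20000 UMIs.

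Acetylcholine synthesis stood out by Chat, the enzyme that makes it, at 145, 296 and 166 CPM in tuft cells of up to 20000 UMIs from the BT mutant, BT WT and PBS libraries, against 0.0906, 0.0624 and 0.0540 CPM in other epithelial cells. Slc5a7, the neuronal choline transporter, had no UMI, and Slc18a3, the vesicular transporter, had 1.62, 0 and 6.79 CPM. Of 7 genes of the list tested, 2 were higher in tuft cells, Chat and the choline transporter-like Slc44a2, and 2 lower, Slc44a1 and Bche. Over all genes tested 10.4% were higher and 15.7% lower, and a difference of this short list from those shares was not tested.

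Lineage transcription factors were largely higher, with 12 of 19 tested higher and 3 lower, against 10.4% and 15.7% of all genes. Spib, an ETS factor also needed by M cells, had 289, 296 and 359.8 CPM in tuft cells of up to 20000 UMIs from the BT mutant, BT WT and PBS libraries, against 0.362, 1.22 and 1.57 CPM in other epithelial cells. The homeobox gene Hmx2 had 183, 244 and 214 CPM, against 0.211, 0.218 and 0 CPM, and its neighbour Hmx3 131, 147 and 132 CPM, against 0.0302, 0 and 0 CPM. Sox9, a factor of progenitors and tuft cells, had 360.4, 423 and 465 CPM, against 35.4, 48.3 and 63.4 CPM. Atoh1, the factor of the secretory lineage, was lower, together with Klf3 and Klf6 (edgeR adjusted p = 0.027 for Atoh1).

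Of 25 signalling genes best known from blood cells 17 were higher in tuft cells and 1, Ptk2b, lower, and without the deep barcodes 20 of 27 were higher. Over all genes tested 10.4% were higher with the deep barcodes and 16.2% without them. Ptprc, the leukocyte antigen CD45, had 501, 433 and 397 CPM in tuft cells of up to 20000 UMIs from the BT mutant, BT WT and PBS libraries, against 5.16, 3.65 and 6.05 CPM in other epithelial cells. Ptpn6, the phosphatase SHP-1, had 629, 606 and 662 CPM, against 15.6, 15.9 and 14.6 CPM. The adaptors Tyrobp and Fcer1g, known from myeloid cells, had 6.46 and 37.2 CPM in tuft cells of the BT mutant library and no UMI in those of the BT WT and PBS libraries. Markers of other cell types were limited by the choice of cells, which dropped barcodes with B cell, T cell, fibroblast, endothelial or macrophage UMIs, so their summed levels are a description. T and NK cell markers had 6.46, 2.44 and 0 CPM in tuft cells of up to 20000 UMIs from the BT mutant, BT WT and PBS libraries, against 4.41, 3.90 and 10.0 CPM in other epithelial cells. B cell markers had 16.2, 19.6 and 40.7 CPM, against 9.24, 7.14 and 24.5 CPM, and were higher in these tuft cells in each library. They were few, at 12, 12 and 16 UMIs over all tuft cells, where the PBS library had 15.4 CPM and was lower. With equal weight per cell the ratios of all tuft to other epithelial cells were 0.78, 1.97 and 0.93. Of the B cell genes tested none passed with the deep barcodes, and Cd79b was higher without them. Macrophage markers had 69.5, 4.89 and 23.8 CPM, against 41.5, 31.8 and 32.6 CPM, and were higher in the BT mutant library alone. Fibroblast markers had 37.2, 29.3 and 33.9 CPM, against 21.8, 11.4 and 15.3 CPM, and Pdgfrb passed as higher. The B cell gene Ms4a1 and the macrophage genes C1qa and Csf1r had no UMI in tuft cells, and neither had Cd3d or Cd3e. The part of such cells in the levels above was not tested. Of the mast cell list Kit, the stem cell factor receptor, was higher in tuft cells, and of the endothelial list Plvap and Esam were. Siglecf, a lectin shared with eosinophils, had 343, 276 and 190.1 CPM, against 0.181, 0.281 and 0.108 CPM, and Cd300lf, the receptor of murine norovirus, had 532, 447 and 458 CPM, against 0.423, 0.374 and 0.108 CPM.

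**Figure D3:**
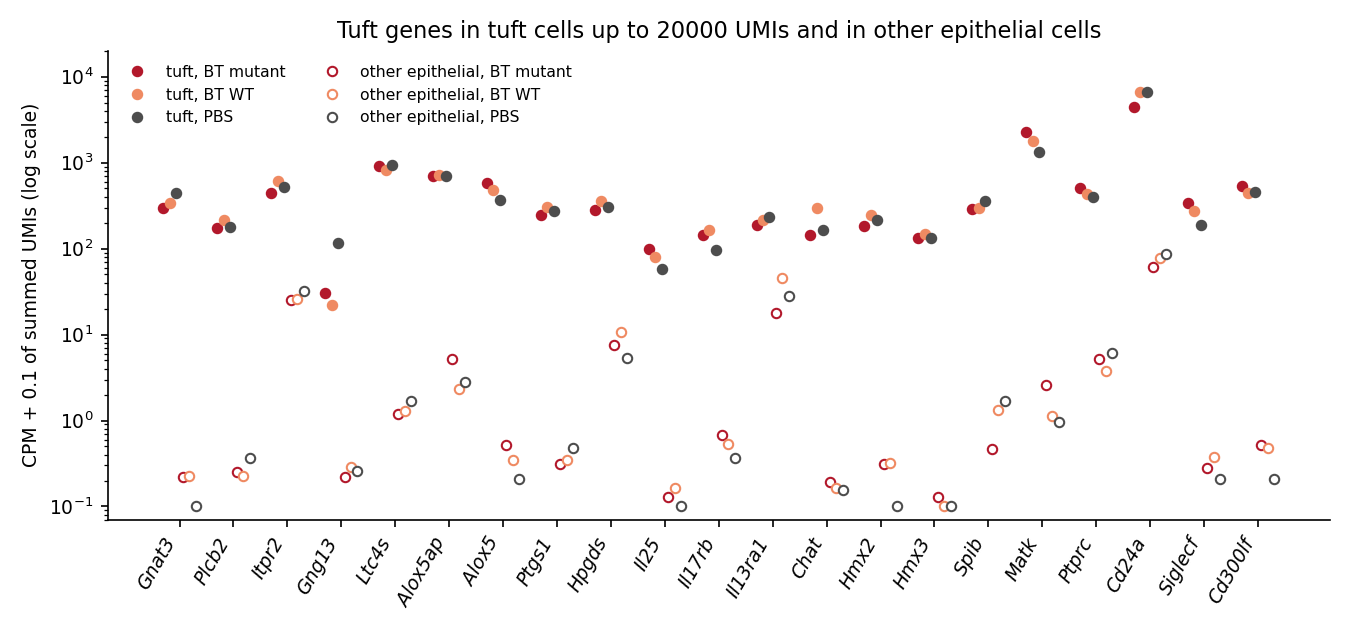
Levels of 21 tuft genes as CPM + 0.1 on a log axis; filled points are sums over tuft cells of up to 20000 UMIs and open points sums over other epithelial cells, 1 point per library. Filled points lie above open points for each gene, and those of the 3 libraries lie close together except for Gng13, at 30.7, 22.0 and 115 CPM in the BT mutant, BT WT and PBS libraries.

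The apical cytoskeleton list split, with 11 of 23 tested genes higher and 7 lower in tuft cells, against 10.4% and 15.7% of all genes. Tuba1a, an alpha tubulin with close relatives, was 81.6 times as high by pooled CPM and Reep5 8.67 times, while the keratin Krt19, ezrin (Ezr) and Actn4 were lower. Of 20 dissociation stress genes 8 were lower and 1, Hsp90aa1, higher, and 11 did not pass, while without the deep barcodes 16 were lower, against 15.7% and 21.6% of all genes lower in the 2 settings. Fos, an immediate early factor, was found in 14.9%, 23.9% and 44.1% of tuft cells of up to 20000 UMIs at 1500 UMIs a cell in the BT mutant, BT WT and PBS libraries, against 64.9%, 68.8% and 76.9% of other epithelial cells. Of 16 class I presentation genes 7 were lower, among them B2m and H2-K1, none was higher and 9 did not pass, and without the deep barcodes 8 were lower and 1, H2-D1, higher. Of 28 interferon-stimulated genes 9 were lower, 1, Ifi27, was higher and 18 did not pass, which became 7 lower and 4 higher without the deep barcodes, and the median log2 fold change was -0.45 with them and 0.31 without. Of 17 clock genes 12 were lower with the deep barcodes and 9 without.

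Some lists took their direction from the deep barcodes. Of 25 cell cycle genes 6 were higher and none lower in tuft cells with the deep tuft barcodes, while 1 was higher and 16 lower without them. Of all genes 10.4% were higher and 15.7% lower with those barcodes, and 16.2% and 21.6% without them. With equal weight per cell the list had 5.77, 7.18 and 10.4 UMIs per 10000 in all tuft cells of the BT mutant, BT WT and PBS libraries. Other epithelial cells had 5.14, 3.46 and 7.42. The part of depth in the 16 falls was not tested. Lgr5, Smoc2 and Axin2, markers of crypt base stem cells, were higher with the deep tuft barcodes. No stem list gene was higher without those barcodes. Of 34 respiratory chain genes 6 were lower with the deep tuft barcodes, a share near the 15.7% of all genes. Without those barcodes 30 were lower, where 21.6% of all genes were. With equal weight per cell this list had 195, 146 and 186 UMIs per 10000 in all tuft cells of the BT mutant, BT WT and PBS libraries. Other epithelial cells had 183, 107 and 236, so the direction differed between libraries. The part of depth in the 30 falls was not tested. Of the enteroendocrine list Cpe alone was higher in both settings. Chgb and Tph1 were lower with the deep tuft barcodes, and 6 of 9 were lower without those barcodes.

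In the small intestine neuron-like tuft-1 and immune-like tuft-2 cells are told apart by gene sets. Of those tested, 6 of 7 tuft-1 and 8 of 10 tuft-2 genes were higher in tuft cells than in other epithelial cells, against 10.4% of all genes. At least 1 UMI of each set was found in 175 of 207 tuft cells of up to 20000 UMIs, and 6 cells had neither. The median cell held 3 UMIs of the tuft-1 genes and 17 of the tuft-2 genes, and Tslp, a tuft-2 gene, had none. A count of cells with 1 UMI cannot show whether the cells form separate types.

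Between libraries the summed UMIs of all 232 tuft cells gave many leading genes whose UMIs lay mostly in the deep barcodes. Of 8511 genes with at least 20 UMIs in the BT mutant and BT WT libraries together, 0.775% were at least 2-fold higher and 2.04% at least 2-fold lower in the BT mutant library. For the BT mutant over the PBS library 2.56% of 8275 genes were higher and 3.59% lower, and for the BT WT over the PBS library 1.62% of 8532 were higher and 1.21% lower. The 3 comparisons share libraries in pairs. The largest falls in the BT mutant against the PBS library were in Mptx1, a pentraxin of crypt secretory cells, with 73 against 11557 UMIs, and in the hormone gene Pyy, with 2 against 1679 UMIs. Deep barcodes held 98.5% of the UMIs of both genes in the PBS library. Likewise deep barcodes held all UMIs of Gsdmc2 in the BT WT library, where it had 135 UMIs against 9 in the PBS library. Insl5, Gcg and Sval1 in the BT mutant against the PBS library, Pyy, Insl5, Ube2c, Mptx1 and B3gnt7 in the BT mutant against the BT WT library, and Gcg, Mptx1, Pyy, Reg4, Ramp1, Gsdmc4, Aqp4 and Gm43305 in the BT WT against the PBS library were of the same kind, with nearly all UMIs of the higher library in deep barcodes. Sycn, higher in the BT WT than in the PBS library by 2.39, differed by 0.23 without them on the log2 scale of CPM + 10. Genes named as higher in the BT mutant library by sums had most UMIs in shallower cells, yet their log2 ratios were smaller without the deep barcodes: 0.72 in place of 1.42 for Rac2 and 0.71 in place of 1.38 for Sct over the BT WT library, both under 2-fold, and 1.15 in place of 1.95 for Strip2 and 1.12 in place of 1.82 for Gnai1 over the PBS library.

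In the 207 tuft cells of up to 20000 UMIs, tuft genes differed little between libraries. For the BT mutant over the BT WT library 1.3% of 5830 genes were at least 2-fold higher and 1.37% lower, and of the 29 further tuft markers none was. For the BT mutant over the PBS library 2.31% of 5551 genes were higher and 3.24% lower, and of the 29 markers 1 was lower. For the BT WT over the PBS library 2.03% of 4737 genes were higher and 2.81% lower, and the same marker was lower. Median log2 ratios of the 29 markers were -0.03, 0.09 and 0.18 for the BT mutant over BT WT, BT mutant over PBS and BT WT over PBS comparisons, against -0.02, -0.11 and -0.09 over all genes. None of the eicosanoid, cytoskeleton, lineage factor or respiratory chain genes with enough UMIs differed by 2-fold in any pair. These are values of 3 libraries, and a difference under 2-fold may still exist.

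**Figure D4:**
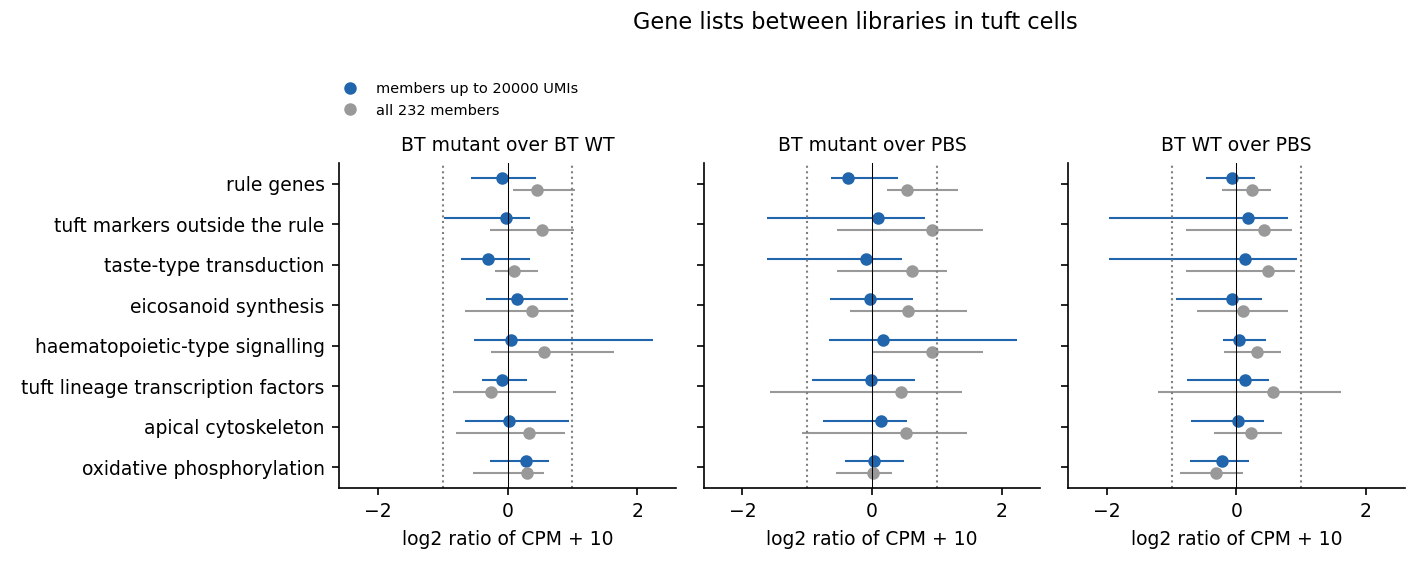
Median (points) and range (lines) of log2 ratios of CPM + 10 over the genes of 8 lists in 3 comparisons, for tuft cells of up to 20000 UMIs in blue and for all 232 tuft cells in grey; dotted lines mark 2-fold. Without the deep barcodes the medians of the 29 markers outside the rule are -0.03, 0.09 and 0.18, and the right end of the haematopoietic-type line in both BT mutant panels is Fcer1g.

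The marker that differed was Gng13, the gamma subunit that partners gustducin (chr17:25717171-25719406). It had 30.7 and 22.0 CPM in tuft cells of up to 20000 UMIs in the BT mutant and BT WT libraries, against 115 CPM in the PBS library, from 19 and 9 UMIs against 34. It was seen in 8 of 103 and 4 of 69 cells, against 12 of 35. The BT WT library had 0.191 times the level of the PBS library (95% exact interval 0.0804 to 0.406) and the BT mutant library 0.266 times (0.143 to 0.480). With the deep barcodes the log2 ratios of CPM + 10 were -0.78 and -0.54 in place of -1.97 and -1.62, and neither reached 2-fold. Gnat3 and Plcb2, which act beside it, did not differ by 2-fold in any pair. In other epithelial cells Gng13 had at most 0.187 CPM.

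Cst6, which encodes the protease inhibitor cystatin E/M (chr19:5344705-5349574), had the clearest order. It had 437 UMIs or 706 CPM in tuft cells of up to 20000 UMIs in the BT mutant library, 151 UMIs or 369 CPM in the BT WT library and 48 UMIs or 163 CPM in the PBS library. The BT mutant library thus stood at 1.91 times the BT WT library (95% exact interval 1.59 to 2.32) and at 4.33 times the PBS library (3.21 to 5.97), and the BT WT library at 2.27 times the PBS library (1.63 to 3.20). At 1500 UMIs a cell Cst6 was found in 53.2% of tuft cells of the BT mutant library (Clopper-Pearson 42.6% to 63.6%), 40.3% of the BT WT library (28.5% to 53.0%) and 2.94% of the PBS library (0.07% to 15.3%), against 0.89%, 0.20% and 0.53% of other epithelial cells. The spread over cells differed, with the top 3 cells holding 14.2% of them in the BT mutant library and 20.5% in the BT WT library, but 45.8% of the 48 UMIs in the PBS library. With the deep barcodes the ratios were 3.18 for the BT mutant over the BT WT library and 7.12 for the BT mutant over the PBS library, both larger, while the log2 ratio of CPM + 10 for the BT WT over the PBS library was 1.04 in place of 1.13.

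Fabp1, a fatty acid binding protein, was also highest in the BT mutant library, at 338, 159 and 156 CPM in tuft cells of up to 20000 UMIs from the BT mutant, BT WT and PBS libraries, against 0.272, 0.0624 and 0.594 CPM in other epithelial cells. It was found in 24.5%, 17.9% and 11.8% of cells at 1500 UMIs, and the 95% intervals of these shares overlap. Gpcpd1, a glycerophosphocholine phosphodiesterase, had 250.5, 144 and 102 CPM in the same tuft cells, and Ctnnbip1, an inhibitor of beta-catenin, had 123, 56.2 and 47.5 CPM. Irf7, a factor of the interferon response, had 144, 108 and 54.3 CPM in these tuft cells, and in other epithelial cells it was also lowest in the PBS library, at 83.6, 119.8 and 31.7 CPM. Adam22 and Tut4 completed the genes named by size as higher in the BT mutant library together with Selenok, while Mfsd6, Krtcap3, Sh3bgrl2 and Fat1 were named as higher in the BT WT than in the PBS library.

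Hamp2, a hepcidin gene with a near copy in Hamp (chr7:30922372-30924681), was lower in the BT mutant library, at 134 CPM in tuft cells of up to 20000 UMIs, against 457 CPM in the BT WT library and 570.3 CPM in the PBS library. The BT mutant library had 0.293 times the BT WT level (95% exact interval 0.224 to 0.382) and 0.235 times the PBS level (0.179 to 0.308). With the deep barcodes the log2 ratios of CPM + 10 were smaller in size, at -0.99 in place of -2.01 over the PBS library, and that over the BT WT library was likewise nearer to 0 than the -1.70 without them. It was seen in 22 of 103 cells of the BT mutant library, against 32 of 69 in the BT WT library and 13 of 35 in the PBS library, and in other epithelial cells it had at most 0.593 CPM. Its UMIs were concentrated, with the top 3 cells holding 41.0%, 36.4% and 60.1% of them. Ifi27l2b, an interferon-inducible gene with close relatives, had 267 CPM in the BT mutant library, 768 CPM in the BT WT library and 475 CPM in the PBS library, while in other epithelial cells it had 213, 199 and 170.1 CPM. Its log2 ratio of the BT mutant over the BT WT library was -1.49 in these cells and -0.83 with the deep barcodes. Nmt1, Ddx1 and Hoxb13 were the further genes named as lower in the BT mutant than in the BT WT library, and Hoxb13 was lower in other epithelial cells too, at 96.2 CPM against 204 CPM. Guca2b, Slc11a2, Pglyrp1 and Psmb2 were named as lower in the BT WT than in the PBS library, and Guca2b, Slc11a2, Ap1s2 and Pglyrp1 as lower in the BT mutant than in the PBS library. With the deep barcodes the log2 ratios of Guca2b and Slc11a2 in the BT WT over the PBS library were -1.29 and -1.24 in place of -3.25 and -2.50. The 32 UMIs of Guca2b in the PBS library came from 3 cells and the 34 of Slc11a2 from 2 cells.

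**Figure D5:**
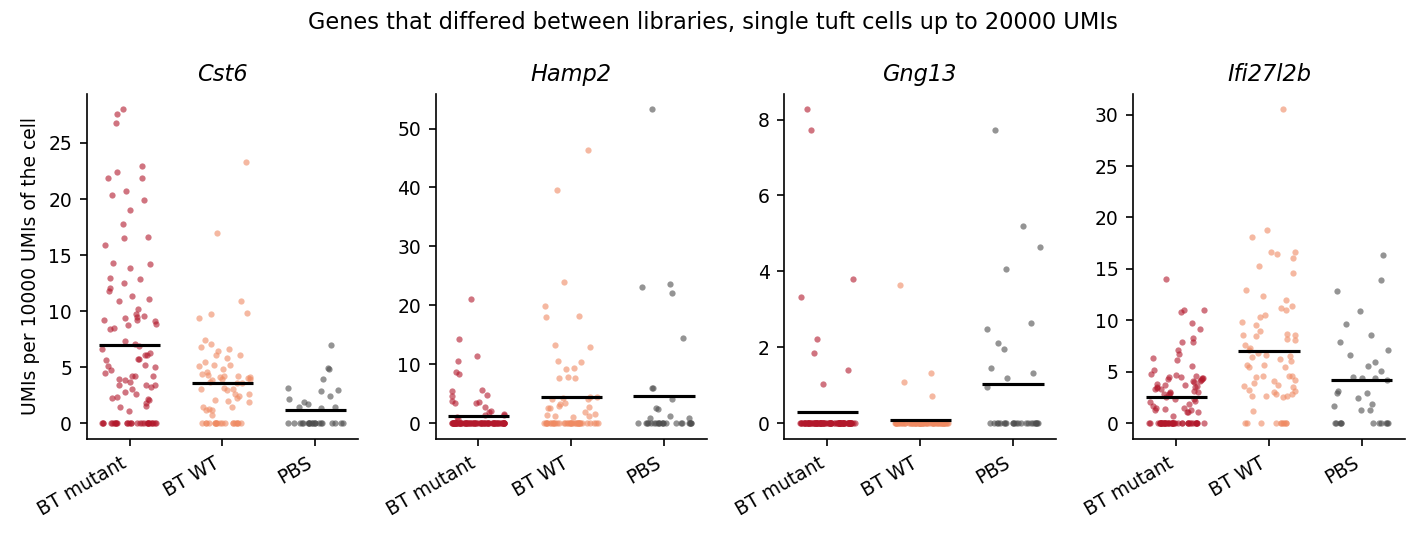
UMIs per 10000 UMIs of the cell for 4 genes in single tuft cells of up to 20000 UMIs, by library; each point is a cell and each bar the mean over cells. Mean Cst6 is 6.94, 3.62 and 1.20 in the BT mutant, BT WT and PBS libraries, and mean Gng13 0.288, 0.0982 and 1.02.

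Class II presentation genes were higher in the BT mutant library by sums, most of which came from 3 barcodes. Of 6 class II genes with enough UMIs in tuft cells of up to 20000 UMIs, 5 were at least 2-fold higher than in the BT WT library and 4 than in the PBS library. Cd74, H2-Aa, H2-Ab1 and H2-Eb1 together had 402 UMIs in tuft cells of the BT mutant, 35 in those of the BT WT and 38 in those of the PBS library. Of the 402 UMIs 372 lay in 3 barcodes, with 150, 142 and 80 UMIs, and the next barcode had 5. The first and the third of them also held 24 and 12 UMIs of macrophage markers, and all 3 had under 1% of their UMIs from the further tuft markers. Over cells at 1500 UMIs, class II was found in 11.7%, 7.46% and 8.82% of tuft cells in the BT mutant, BT WT and PBS libraries, against 7.82%, 11.5% and 15.2% of other epithelial cells. All Fcer1g UMIs but 2 of the 23 in the BT mutant library lay in the same 3 barcodes.

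Dissociation stress genes, which include the immediate early factors, did not move alike. Of 18 with enough UMIs in tuft cells of up to 20000 UMIs, 4 were at least 2-fold lower and 2 at least 2-fold higher in the BT mutant than in the PBS library, and of 17 for the BT WT over the PBS library 3 were lower and 1 was higher. In tuft cells of up to 20000 UMIs Egr1 had 121 and 112 CPM in the BT mutant and BT WT libraries, against 384 CPM in the PBS library, and Fosb had 103 and 152 CPM, against 319 CPM. With the deep barcodes the log2 ratio of Egr1 was -1.20 for the BT mutant and 0.11 for the BT WT over the PBS library. The heat shock genes Hspa1a and Hspa1b, which are near copies of each other, were the 2 that were higher, with log2 ratios of 1.84 and 1.72 for the BT mutant over the PBS library. In other epithelial cells the same genes were higher and closer, with Egr1 at 555, 538 and 672 CPM in the BT mutant, BT WT and PBS libraries. Goblet and colonocyte genes, which the rule limits, also differed between the tuft sums: Muc2 had 40.4, 203 and 81.5 CPM in tuft cells of up to 20000 UMIs and 775, 3401 and 1329 CPM in other epithelial cells of the BT mutant, BT WT and PBS libraries. The order of Muc2 was the same in both cell classes, and the part of free RNA in it was not tested.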

How the data were processed

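RNA of single cells from 3 mouse colon libraries was read with the Chromium 3' v3 kit, per the labels. The deposited files hold UMI counts per gene and barcode, made by the authors with Cell Ranger 5.0.0, per the file headers; STAR and the mm10 build are named in the submitters' processing notes. No source used here states the cell calling or any doublet removal, and no doublet caller was run. The libraries held 54943483, 55436776 and 42003444 UMIs in 8195, 8829 and 4425 barcodes (BT mutant, BT WT, PBS), of which 6138, 7070 and 3198 were kept.

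Summed counts of tuft and other epithelial cells were compared with edgeR 4.0.16 in R 4.3.3 (quasi-likelihood test, TMM scaling, library as block, Benjamini-Hochberg adjusted p under 0.05), checked on simulated data; DESeq2 1.42.0 was an alternative. These p-values measure the spread between 3 libraries. Between libraries, log2 ratios of CPM + 10 were taken over genes with at least 20 UMIs, with exact binomial intervals for counting error only. Python 3.11.15, numpy 2.4.6, scipy 1.17.1, pandas 2.3.3 and matplotlib 3.10.9 did the rest. Gene positions are from GENCODE on GRCm38, where all 514 identifiers looked up matched.

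Named genes were the 10 with the largest rise and the 5 with the largest fall among genes past the threshold and moving alike in 3 libraries, and between libraries the 5 largest ratios each way among genes with at least 30 UMIs, 100 CPM and an interval that excludes 1; lists are given by their most abundant members. Members and lists were chosen with earlier results of these data known.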

Additional observations from a re-analysis of the deposited data

How the results depend on the processing

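No gene named by size in the test or from the sums of all tuft cells was reversed by an alternative that kept it. Egr1, taken from a list, was lower in the BT WT than in the PBS library without the deep barcodes and not with them. Between tuft and other epithelial cells 30 genes were called in the opposite direction without those barcodes. The order of the BT mutant and PBS tuft shares changed in 3 of 10 ways of counting. Calls in the cell cycle and stem lists changed direction without the deep barcodes. Some median log2 fold changes changed sign, as from -0.45 to 0.31 for interferon-stimulated genes and from 1.61 to -2.93 for enteroendocrine genes. The tuft share moved beyond its counting interval to 1.82%, 1.12% and 1.28% of all kept barcodes in the BT mutant, BT WT and PBS libraries, and to 3.66%, 2.26% and 3.73% with all rule members; it was 2.17% in the BT WT library at a mitochondrial limit of 10% and 4.03% in the PBS library with at least 500 genes. Genes higher in tuft cells numbered 2428 with all rule members and 338 at the 10% mitochondrial limit. Without tuft barcodes above 20000 UMIs, a limit chosen after seeing the data, they numbered 1952. Genes lower numbered 870 against other epithelial cells poor in goblet and colonocyte UMIs, 1111 after thinning and 331 at the 10% limit. Leaving out 1 library gave 853 to 1249 higher and 1185 to 1547 lower. Genes 2-fold apart fell with a pseudocount of 50 CPM to 45 (BT mutant over BT WT), 111 (BT mutant over PBS) and 42 (BT WT over PBS), after thinning to 126, 180 and 93, and without barcodes above 20000 UMIs to 156 and 308 in the comparisons of the BT mutant. The last 2 counts were among 5830 and 5551 genes with at least 20 UMIs, in place of 8511 and 8275. As shares, 0.775% higher and 2.04% lower became 1.3% and 1.37% over the BT WT library. Over the PBS library 2.56% and 3.59% became 2.31% and 3.24%. Thinning also leaves fewer genes with at least 20 UMIs. For the BT WT over the PBS library they were 156 with at least 50 UMIs, 579 with equal weight per cell and 692 at the 10% limit. The cause was not tested. The adjusted p of Ido1 was 0.0805 in DESeq2. The test of tuft against other epithelial cells was paired within library, and without the library block 972 genes were higher and 1273 lower. Between groups no paired analysis was possible, because the labels give no replicate numbers and each group is 1 library.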
